A study of Mus musculus with 12 samples.

Results

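The comparison described here is that of livers from mice on a diet labelled HFCF with livers from chow-fed mice after 1 month, which uses 6 of the 12 small RNA libraries of the series, 3 per diet, chosen by their labels. All mice were wild-type C57BL/6 males aged 3 months that had been on chow or on HFCF for 1 month. The labels do not spell out HFCF, and the series title speaks of experimental nonalcoholic steatohepatitis, in which a fatty liver is also inflamed. The other 6 libraries, from chow and HFCF mice after 3 months on the diet, enter the fits as separate groups and are used only where values at that time are given beside those at 1 month. The design text calls the 3 libraries of a group biological replicates. It gives a stranded kit for total RNA after rRNA depletion, the protocol gives a kit for small RNA, and which was used is not settled by either.

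A miRNA is a short RNA cut from a hairpin precursor, and it lowers the output of mRNAs that pair with its seed, a short stretch near its 5′ end. Small nucleolar RNAs (snoRNAs) sit mostly in introns of host genes and guide chemical changes of ribosomal and spliceosomal RNA. Short reads from protein-coding genes in such libraries are fragments of mRNAs. In liver, PPAR alpha (Ppara) is the nuclear receptor that switches on genes of fatty acid oxidation, and stellate cells are the main source of extracellular matrix.

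The 6 libraries held 3312698 to 5255906 counts. Rows were divided into 259 miRNA loci, 2804 protein-coding genes not set aside for overlap with an annotated small RNA gene, and 267 snoRNAs. Each class was scaled within itself. Per library, miRNA loci held 1714087 to 3122907 counts, snoRNAs 318013 to 479039 and the protein-coding fragments 53131 to 101139. Values below are CPM, each count divided by the class total and set to a common scale, with TMM, a factor that evens out library composition. Because a CPM is not divided by gene length, it is compared between libraries and not between genes. All 5 hepatocyte markers checked (Alb, Apoa1, Ttr, Cps1 and Apob) were in the table, with at least 133 counts in each library, and 0 of 6 pancreas markers were. Of markers of other liver cells, 3 of 6 for leukocytes, 2 of 5 for stellate cells and smooth muscle, 2 of 4 for endothelium and 1 of 4 for bile duct epithelium had a row. Dcn held 30 to 70 counts per library and the rest of these rows only 2 to 18. Among them, Cd74 and Col3a1 were set aside for overlap with a small RNA gene. In bulk liver, fewer cells of a type and less RNA per cell cannot be told apart.

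After 1 month, HFCF livers had less of 7 miRNA loci and more of none, more fragments of 16 protein-coding genes and fewer of 11, and no snoRNA passed. Called here means a Benjamini-Hochberg adjusted p under 0.05 in edgeR's quasi-likelihood test within the class. The 7 lower miRNA loci are 3.08% of 227 tested and the higher ones 0%; at an unadjusted p under 0.05 there were 41 loci in either direction (18.1%), and DESeq2 called 2 higher where limma-voom called 0. The 16 higher genes are 1.03% and the 11 lower genes 0.711% of 1548 tested (1.74% together), and for snoRNAs the share was 0% of 252.

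**Figure D1:**
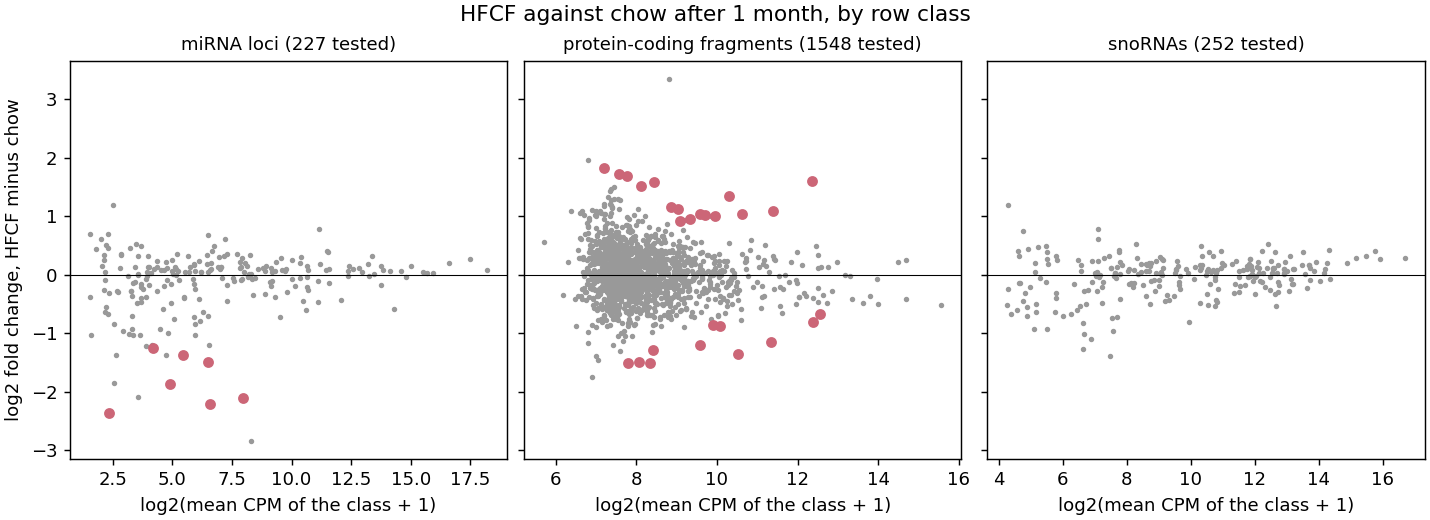
Log2 fold change (HFCF minus chow, 1 month; vertical axis) against the log2 of the mean CPM of the class plus 1 (horizontal axis) for each tested feature, in 3 panels by class; large red points have an adjusted p under 0.05. The 7 called miRNA loci all lie below 0, the 27 called genes lie on both sides, and no snoRNA was called.

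The called miRNA loci lie in 2 chromosomal clusters. Mir183, Mir96 and Mir182 stand together between genes on the minus strand of chromosome 6, and their miRNAs are known from sensory epithelia and other epithelial cells. Mir127, Mir434, Mir136 and Mir341 lie on the plus strand of chromosome 12 in the imprinted Dlk1-Dio3 region, whose miRNAs are made from the maternal chromosome. The mature sequences below are shown because they define what each locus can pair with. They are RefSeq's on GRCm38.p6 (the mm10 build), 1 arm for each locus, with the seed (bases 2 to 8) in capitals. Counts were per hairpin, so the arms were not separated.
mmu-miR-183-5p: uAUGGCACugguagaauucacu
mmu-miR-96-5p: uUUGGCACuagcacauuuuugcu
mmu-miR-182-5p: uUUGGCAAugguagaacucacaccg
mmu-miR-127-3p: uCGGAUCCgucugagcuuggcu
mmu-miR-434-3p: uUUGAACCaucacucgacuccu
mmu-miR-136-5p: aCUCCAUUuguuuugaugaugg
mmu-miR-341-3p: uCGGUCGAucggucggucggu
The seeds of miR-96-5p and miR-183-5p, and those of miR-96-5p and miR-182-5p, are identical at 6 of 7 positions. Those of miR-183-5p and miR-182-5p are identical at 5 of 7. No pair with a Dlk1-Dio3 miRNA in it reached more than 4 of 7. That number was reached by miR-434-3p with miR-96-5p and with miR-127-3p.

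Mir183 stood at 127, 206 and 129 CPM in the chow livers and at 40.1, 24 and 35.3 CPM in the HFCF livers. All HFCF values lay below all chow values, with a log2 fold change of -2.22 (SE 0.33, adjusted p = 0.00185). For Mir182 the chow values were 282, 527 and 388 CPM and the HFCF values 111, 64.1 and 102 CPM (log2 fold change -2.11, SE 0.30, adjusted p = 0.00185). For Mir96 they were 34.1, 54.7 and 48.4 CPM against 14.5, 7.52 and 15.3 CPM (log2 fold change -1.87, SE 0.29, adjusted p = 0.00185). In all 3 loci of the cluster chow replicate 2 was the highest library and HFCF replicate 2 the lowest, and the groups did not overlap. These 3 loci passed in all 16 alternative settings and left-out libraries.

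Calls in the Dlk1-Dio3 region were less stable. The alternative settings and left-out libraries that lost the call numbered 10 of 16 for Mir127, 7 of 16 for Mir434, 6 of 16 for Mir136 and 2 of 15 for Mir341. Mir127 stood at 144, 188 and 65.6 CPM in chow and at 47.3, 48.0 and 45.8 CPM in HFCF (log2 fold change -1.49, SE 0.36, adjusted p = 0.0381). Mir434 stood at 68.2, 84.5 and 32.1 CPM in chow and at 20.0, 33.3 and 17.8 CPM in HFCF (log2 fold change -1.37, SE 0.32, adjusted p = 0.0381). In both, chow replicate 3 was well below the other chow livers, and for Mir434 it was below 1 of the HFCF livers, so its groups overlap. Mir136 fell by 1.25 on the log2 scale (SE 0.28, adjusted p = 0.0329). Mir341 fell by 2.37 (SE 0.41, adjusted p = 0.00444) but rests on 11 to 22 counts per chow library and 2 to 5 per HFCF library. Of the 17 Dlk1-Dio3 loci tested, 4 were lower, 13 did not pass and 16 had a negative log2 fold change. Their median was -1.03 against 0.02 over all miRNA loci tested. The cluster's summed level, untested rows included, was 798, 798 and 353 CPM in chow and 400, 314 and 239 CPM in HFCF. These sums overlap between the diets, since chow replicate 3 was below HFCF replicate 1.

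**Figure D2:**
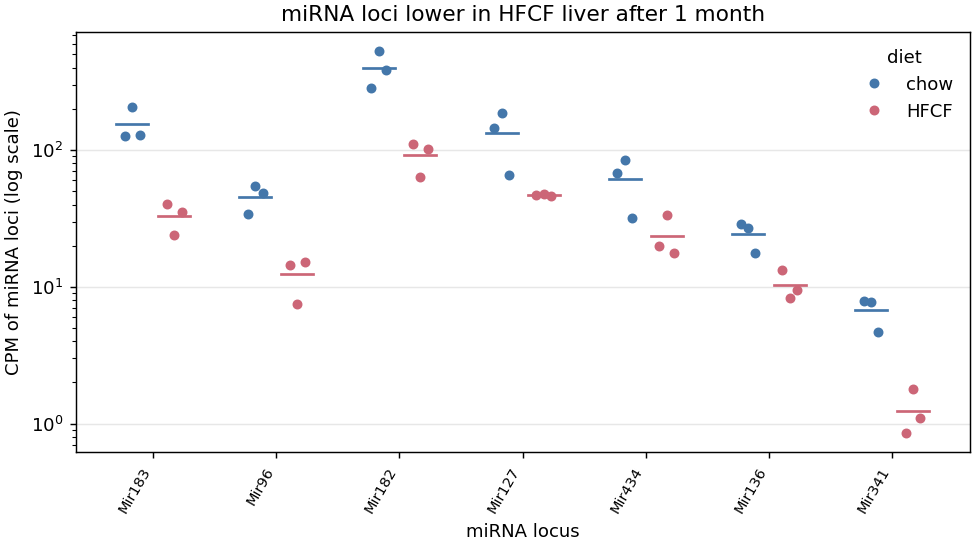
CPM of miRNA loci (log scale) in each of the 3 chow and 3 HFCF livers at 1 month for the 7 called loci; points are libraries and bars are group means. Chow and HFCF points are apart for every locus but Mir434, where the lowest chow liver (32.1 CPM) is below the highest HFCF liver (33.3 CPM).

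Chow replicate 2 stood apart both in hepatocyte miRNAs and in miRNAs of other cells. It had 44.7 CPM of Mir375, an endocrine miRNA, against 2.91 to 5.37 CPM in the other 5 livers, and 1389 CPM of Mir10b against 33.1 to 169 CPM. Mir200c, of epithelium, was at 262 CPM against 47.3 to 72.5 CPM. Without this library 4 miRNA loci were called lower, among them the 3 of the miR-183 cluster. Among the abundant hepatocyte miRNAs, 0 of 10 loci passed, with a median log2 fold change of 0.15. Their summed level was 276720 CPM in chow replicate 2 and 323320 to 384710 CPM in the other 5 livers, so this library lowers the chow mean. Mir148a, for example, stood at 163940, 153940 and 174290 CPM in chow and at 179280, 196050 and 215370 CPM in HFCF (log2 fold change 0.26, SE 0.11, adjusted p = 0.225). The groups do not overlap for Mir148a, which was also the case for 18.9% of all miRNA loci tested.

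Of 28 tested members of a list of fatty acid oxidation and PPAR alpha target genes, 4 were higher in HFCF, none was lower and 24 did not pass. The median log2 fold change was 0.24, against 0.00 over all coding genes, and 21 members were positive. The 4 are Ppara itself, Ehhadh and Acaa1b, enzymes of the peroxisomal pathway, and Fabp1, the liver fatty acid binding protein.

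Ehhadh stood at 2178, 1536 and 1386 CPM in chow and at 3054, 4384 and 3501 CPM in HFCF (log2 fold change 1.08, SE 0.20, adjusted p = 0.00111). Ppara stood at 361, 317 and 162 CPM in chow and at 589, 734 and 633 CPM in HFCF (log2 fold change 1.16, SE 0.28, adjusted p = 0.00821). Fabp1 stood at 1307, 1102 and 648 CPM against 1784, 2785 and 1808 CPM (log2 fold change 1.03, SE 0.23, adjusted p = 0.00656). Every HFCF liver was above every chow liver in all 3, and the lowest chow liver was replicate 3. Acaa1b rose by 0.95 (SE 0.26, adjusted p = 0.0377), a call lost in 8 of 17 alternative settings and left-out libraries. Its row overlaps Dlec1, so reads of the genes cannot be told apart.

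The other 24 members did not pass. Cpt1a, which admits fatty acids to mitochondria, had a log2 fold change of 0.15 (adjusted p = 0.88), and Cyp4a10 and Cyp4a14 had -0.17 and 0.14. Cpt1a, these 2 Cyp4a genes and the called Ehhadh and Fabp1 all belong to the same list. The activity of PPAR alpha itself was not tested.

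The Fabp1 promoter is shown because Fabp1 was the only called gene with a promoter entry that held a repeat of the kind that PPAR alpha binds. Promoters were searched on both strands for 7 patterns, and the pattern and gene shown were picked after the matches were seen. RefSeq promoters run from 250 bases before to 50 after a gene's start, and 20 of the 27 called genes had an entry. AGGNCA followed after 1 base by a second AGGNCA occurred in 0.381% of 32851 promoters and in Fabp1 alone of the 20. Of its 3 narrower forms, which it contains, AGGNCA then AGGTCA matched Fabp1 (0.0944% of promoters), while AGGTCA then AGGTCA (0.0396%) and AGGTCA then AGGNCA (0.137%) matched none of the 20. AGAACA followed after 3 bases by TGTTCT matched none either (0.00913%). TCACNCCAC matched Ehhadh (1.24%), and CACGTG matched Aldh3a2 (7.15%). Each match describes letters in this window and was picked from several searches, so it is no evidence of binding. The 100 bases before the Fabp1 start, chr6:71199779-71199878 on the plus strand of GRCm38.p6, read as follows, with the match, which is on the minus strand, in capitals.
Fabp1 upstream: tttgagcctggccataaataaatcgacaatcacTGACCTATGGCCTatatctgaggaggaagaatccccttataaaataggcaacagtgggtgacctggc

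Lipid synthesis genes split. Scd1, the desaturase that makes monounsaturated fatty acids, stood at 2901, 2804 and 2052 CPM in chow and at 5538, 5626 and 12453 CPM in HFCF (log2 fold change 1.61, SE 0.29, adjusted p = 0.00656). HFCF replicate 3 was far above the other HFCF livers, and all 3 were above every chow liver. Lpin1, a phosphatidate phosphatase of triglyceride synthesis, stood at 956, 1135 and 1098 CPM in chow and at 515, 433 and 426 CPM in HFCF (log2 fold change -1.21, SE 0.25, adjusted p = 0.00456). The groups are far apart and tight for Lpin1. Of 16 tested genes of fatty acid and triglyceride synthesis, these were the only 2 called, and the list's median was -0.16. Fasn, the fatty acid synthase, had a log2 fold change of -0.58 (adjusted p = 0.531).

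Sterol genes did not pass, although 6 of 7 tested members of the synthesis and uptake list were negative and the median was -0.61. Their summed level, untested rows included, was 2120 to 2520 CPM in chow and 1261 to 1654 CPM in HFCF. Insig2, which holds the sterol sensor in the endoplasmic reticulum and was not on that list, fell by 0.86 (SE 0.23, adjusted p = 0.0335), but 11 of 17 alternative settings and left-out libraries lost this call. Cyp7a1, the rate-limiting enzyme of bile acid synthesis, ranged from 221 to 904 CPM in both groups together, with a log2 fold change of -0.15 (adjusted p = 0.926).

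The gene with the smallest p-value was Gpcpd1, which splits glycerophosphocholine. It stood at 829, 384 and 882 CPM in chow and at 1601, 2013 and 1783 CPM in HFCF (log2 fold change 1.35, SE 0.23, adjusted p = 0.000336). The HFCF livers lie close together at about the same height, well above chow. Gpcpd1, Lpin1, Cyp3a11 and Tmem189 passed in every alternative setting and with any library left out. The Tmem189 row overlaps Cebpb, a transcription factor gene, so its rise (log2 fold change 1.68, SE 0.37, adjusted p = 0.00656) cannot be given to either gene.

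Calls among genes of methionine and one-carbon metabolism and of amino acid breakdown were all lower in HFCF. Of 16 tested one-carbon genes, 2 were lower, none was higher and 15 were negative, with a median of -0.42. Bhmt, which remethylates homocysteine, stood at 1264, 1168 and 1800 CPM in chow and at 699, 715 and 853 CPM in HFCF (log2 fold change -0.88, SE 0.23, adjusted p = 0.0217; call lost in 6 of 17 alternatives). Gldc, of the glycine cleavage system, stood at 457, 451 and 270 CPM in chow and at 221, 56.4 and 142 CPM in HFCF (log2 fold change -1.497, SE 0.35, adjusted p = 0.00808). Both had no overlap, and Gldc rests on 3 to 12 counts per HFCF library. Among 30 urea cycle and amino acid genes 1 was lower, the tryptophan dioxygenase Tdo2, at 6599, 8179 and 5634 CPM in chow and 4875, 3594 and 3139 CPM in HFCF (log2 fold change -0.82, SE 0.19, adjusted p = 0.00656). The list's median was -0.31 and 23 members were negative, among them Arg1 at -0.56 (adjusted p = 0.169), the arginase of the urea cycle.

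Calls among drug-handling and plasma protein genes were all lower in HFCF. Of 19 cytochrome P450 genes, Cyp3a11 alone was called, at 1796, 2704 and 1872 CPM in chow and 497, 508 and 1369 CPM in HFCF (log2 fold change -1.36, SE 0.29, adjusted p = 0.00962). HFCF replicate 3 was nearer to chow than the other HFCF livers. Slco1a4, a carrier of organic anions, fell by 1.505 on the log2 scale (SE 0.35, adjusted p = 0.00805). Serpina1e, of the alpha-1 antitrypsin family, fell by 1.15 (SE 0.27, adjusted p = 0.0217) and shares near-identical copies, so the copy is uncertain. It was the only gene called of 53 on a list of secreted plasma proteins, which had a median of -0.19. Mug1, a protease inhibitor of plasma that is not on that list, fell by 0.68 (SE 0.18, adjusted p = 0.0238), a call lost in 8 of 17 alternatives. Alb, at 65904, 60839 and 45453 CPM in chow and 35102, 36861 and 47538 CPM in HFCF, did not pass (log2 fold change -0.53, adjusted p = 0.109), and the groups overlap. Tsc22d3, a glucocorticoid-induced regulator, fell by 1.52 (SE 0.36, adjusted p = 0.00808). Agxt2l1, a lyase of phosphoethanolamine, fell by 1.28 (SE 0.31, adjusted p = 0.0108).

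Calls among matrix genes were all higher in HFCF, while miRNAs of mesenchymal cells gave no call. The list of stellate cell and matrix genes held 37 genes. A row was found for 13, of which 3 share reads with a small RNA gene, and 6 were tested. Of these 6, 2 were higher, all were positive and the median was 0.96, while 772 of all 1548 coding genes tested were positive. The count filter can admit a gene scarce in chow through groups where it is high, so signs and median only describe the list. Its summed level, including rows that were not tested, was 3622 to 5382 CPM in chow and 5891 to 7658 CPM in HFCF. Dcn (decorin) stood at 414, 501 and 738 CPM in chow and at 1288, 1185 and 840 CPM in HFCF (log2 fold change 1.02, SE 0.24, adjusted p = 0.00821). Col14a1, a collagen that sits on fibrils, stood at 117, 117 and 198 CPM in chow and at 350, 508 and 362 CPM in HFCF (log2 fold change 1.51, SE 0.34, adjusted p = 0.00656). The groups do not overlap in either gene. Reln and Bgn had log2 fold changes of 1.00 (adjusted p = 0.0556) and 0.92 (adjusted p = 0.152). Of the defining markers, Col1a1 and Acta2 had no row, and Col3a1 shares its reads with a small RNA gene. Tgfbi, a matrix protein, rose by 1.82 (SE 0.52, adjusted p = 0.0452) on 1 to 6 counts per chow library and 9 to 19 per HFCF library, and 6 of 15 alternatives lost this call. Of 10 tested mesenchymal miRNA loci 0 passed, 7 were negative and the median was -0.16. Their summed level was 49947, 67903 and 54305 CPM of miRNA loci in chow and 49745, 47781 and 46630 CPM in HFCF. The groups did not overlap but nearly met, and the highest value was that of chow replicate 2, which stood apart in other miRNAs. Among single miRNA loci tested, 18.9% had groups that did not overlap. No such share was computed for sums of lists. Mir143, of smooth muscle and stellate cells, had a log2 fold change of -0.60 (SE 0.25, adjusted p = 0.201). The part of cell numbers in the rise of the matrix genes was not tested.

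The remaining higher genes have varied roles. Alas1, the first enzyme of heme synthesis, rose by 1.00 (SE 0.23, adjusted p = 0.00753). Txnip, which binds thioredoxin, rose by 1.12 (SE 0.26, adjusted p = 0.00808), and Gys2, the liver glycogen synthase, by 0.91 (SE 0.25, adjusted p = 0.0393). The Gys2 call was lost in 10 of 17 alternative settings and left-out libraries. Aldh3a2, a fatty aldehyde dehydrogenase, rose by 1.03 (SE 0.27, adjusted p = 0.0211). Inmt, an amine methyltransferase, rose by 1.71 (SE 0.39, adjusted p = 0.00656) and Abcc9, a potassium channel subunit, by 1.58 (SE 0.33, adjusted p = 0.00509). All 27 called genes had non-overlapping groups, which was the case for 14.2% of all coding genes tested. The calls were made on these same counts, so the separation follows largely from the choice of genes and is no further support.

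**Figure D3:**
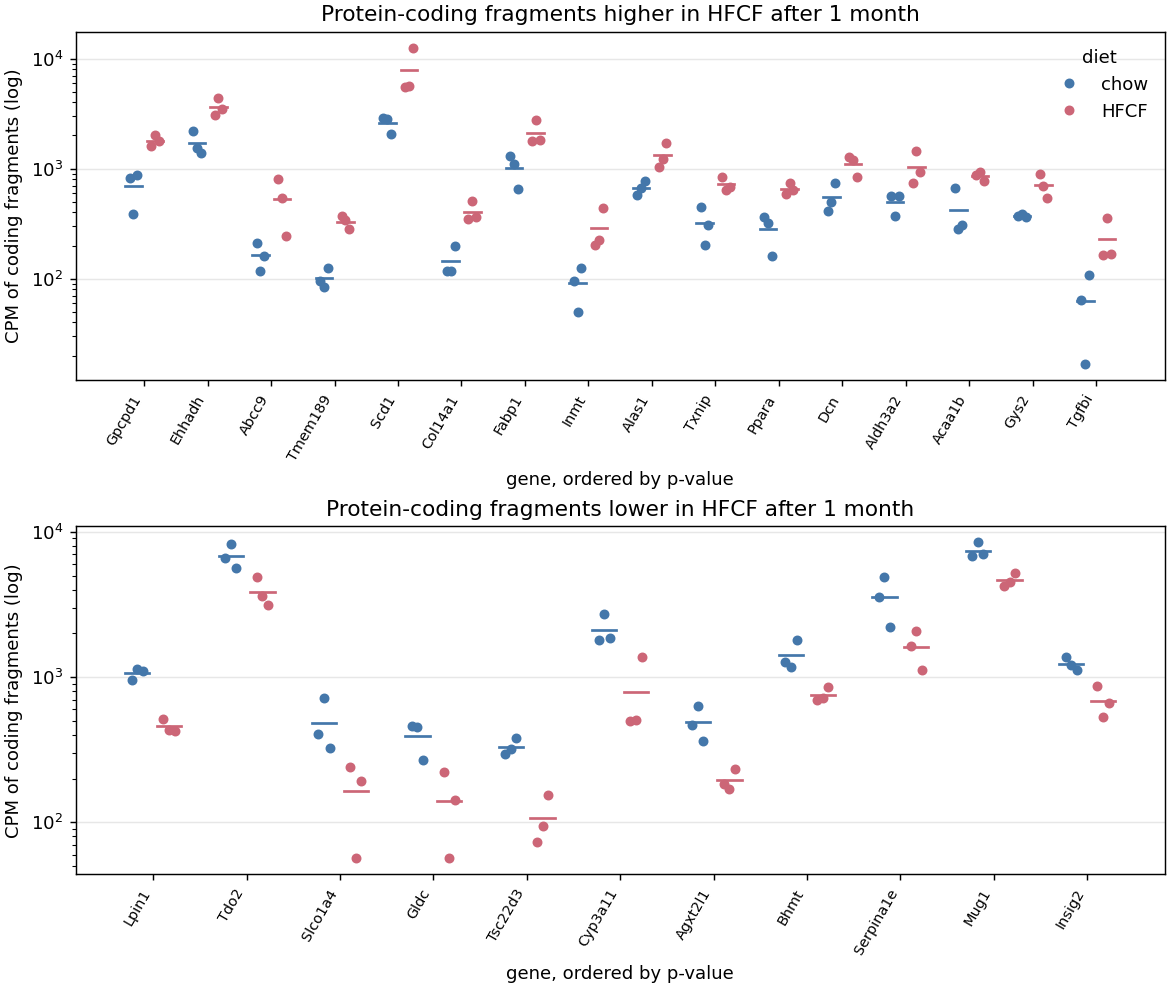
CPM of protein-coding fragments (log scale) in each liver at 1 month for the 16 called genes that were higher (top) and the 11 that were lower (bottom), ordered by p-value; points are libraries and bars are group means. In all 27 genes the 3 HFCF livers lie on 1 side of the 3 chow livers.

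**Figure D4:**
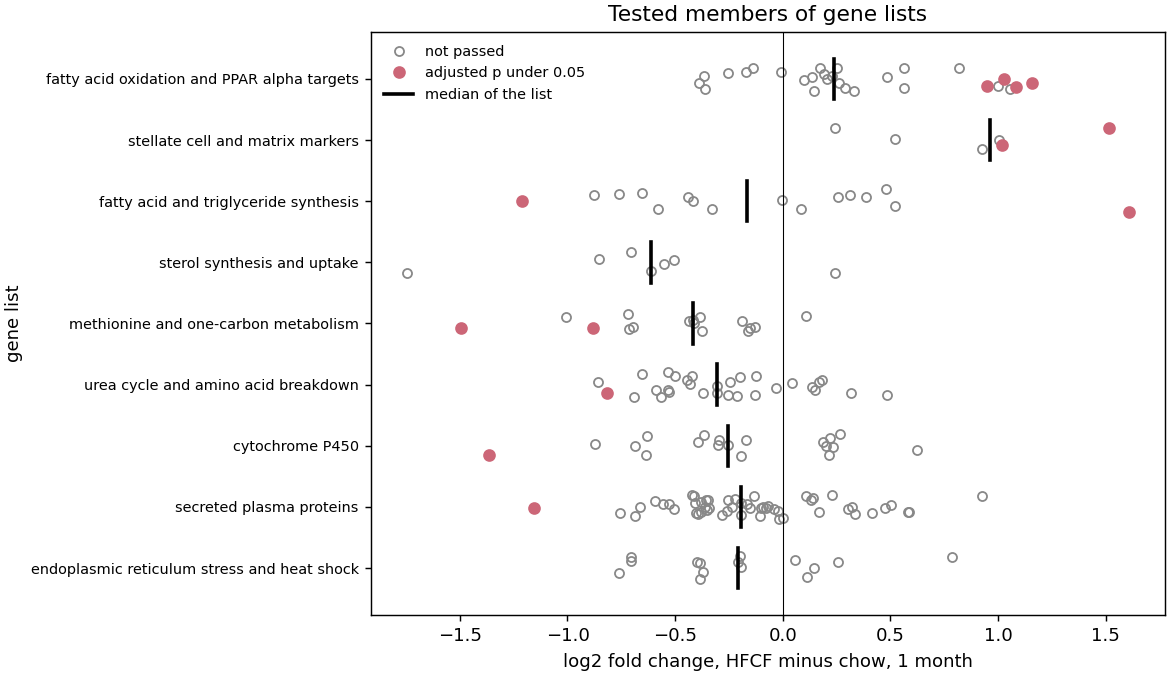
Log2 fold change (HFCF minus chow, 1 month) of each tested member of 9 gene lists, with filled points at an adjusted p under 0.05 and a black bar at the list's median. Medians run from -0.61 for sterol synthesis to 0.96 for matrix genes, and most members of every list did not pass.

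No snoRNA passed, by edgeR, DESeq2 or limma-voom, and 20 of 252 (7.94%) had an unadjusted p under 0.05 in edgeR. The smallest p belonged to a SNORD12 copy in Zfas1, at 1894, 1336 and 2031 CPM in chow and at 1278, 1305 and 1075 CPM in HFCF (log2 fold change -0.53, SE 0.17, adjusted p = 0.566). Snord17, in an intron of Snx5, stood at 10866, 9370 and 10124 CPM in chow and at 12929, 12889 and 13968 CPM in HFCF (log2 fold change 0.39, SE 0.14, adjusted p = 0.566). Neither pair of groups overlaps, as in 9.52% of all snoRNAs tested. Another SNORD12 copy, more abundant, stood at 13540, 12040 and 12350 CPM in chow and at 14060, 18020 and 10210 CPM in HFCF. It had the opposite sign (log2 fold change 0.16, SE 0.20, adjusted p = 0.783). The 124 C/D box snoRNAs, which guide methylation, had a median log2 fold change of 0.03, and the 86 H/ACA box snoRNAs, which guide pseudouridine formation, one of -0.04. Of 15 scaRNAs, which act on spliceosomal RNA, 14 were positive with a median of 0.18. The 4 snoRNAs of the Rpl13a introns, reported elsewhere in lipid-loaded cells, had log2 fold changes of 0.09 (Snord32a), 0.12 (Snord33), 0.10 (Snord34) and -0.21 (Snord35a).

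No class share passed a test between the diets. Shares are of the rows not set aside for overlap with a small RNA gene. Of these counts, miRNAs took 81.9% ± 4.06 (SD, n = 3) in HFCF and 77.9% ± 4.93 in chow (exact permutation p = 0.4, two-sided). Protein-coding fragments took 1.76% ± 0.345 against 2.42% ± 0.573 (exact permutation p = 0.2) and snoRNAs 10.7% ± 2.02 against 13.02% ± 2.96 (exact permutation p = 0.3). The smallest p that 3 against 3 allow is 0.1. With 1 library left out, the difference in the miRNA share, 3.98 points, ran from 1.28 without chow replicate 2 to 6.28 without HFCF replicate 3. That in the snoRNA share, -2.29 points, ran from -3.85 without chow replicate 1 to -0.913 without chow replicate 2.

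After 3 months, in separate mice that were also older, 5 of the 7 miRNA loci and 6 of the 27 genes were called in the same direction; over all features tested, 22.9% of miRNA loci and 2.33% of coding genes were called at that time. The 5 loci were Mir96 of the miR-183 cluster and Mir127, Mir434, Mir136 and Mir341 of the Dlk1-Dio3 region. Mir183 and Mir182 were not called at 3 months. The 6 genes were Scd1, Slco1a4, Aldh3a2, Bhmt, Serpina1e and Acaa1b. All 7 loci and 24 of 27 genes kept their sign. Gpcpd1 had a log2 fold change of 0.04 at 3 months (adjusted p = 0.963) and Mir183 one of -0.46 (adjusted p = 0.325), while Scd1 reached 3.35 (adjusted p = 1.56e-06). The difference between times was tested for each, and none of the 34 passed (lowest adjusted p = 0.082 for miRNA loci and 0.218 for genes).

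**Figure D5:**
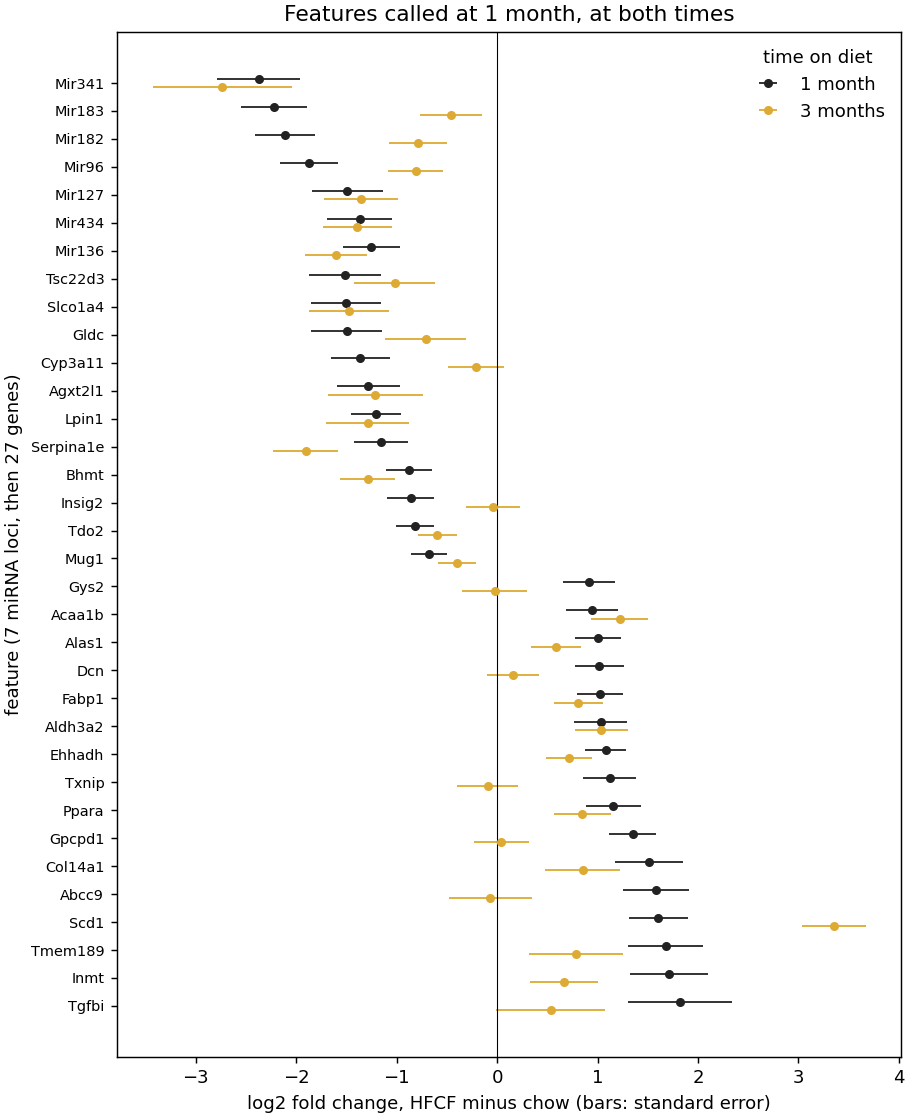
Log2 fold change (HFCF minus chow) with its standard error for the 7 miRNA loci and 27 genes called at 1 month, at 1 month (black) and 3 months (yellow). All 7 loci are below 0 at both times, and Gpcpd1, Txnip, Abcc9, Gys2 and Insig2 lie near 0 at 3 months.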

How the data were processed

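Small RNA libraries of mouse liver were analysed from the table that the authors deposited, which holds whole-number read counts per gene and FPKM values, per the file headers. Per the submitters' processing notes the reads were placed on mm10. Which aligner, counter and strand setting served is not given in the sources used here. Tests used the deposited counts, and the authors' FPKM values served only to check library sizes. Of 3717 rows, 3617 matched GENCODE M21 by identifier. Protein-coding rows whose exons overlap a small RNA gene, or that hold one with at least 20% of their counts, were left out (161 of 2965).

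Each class was fitted in edgeR 4.0.16 (R 4.3.3) with filterByExpr, TMM and the robust quasi-likelihood test over all 12 libraries, a separate mean for each group and Benjamini-Hochberg adjustment within the class. A standard error is the size of the log2 fold change over the root of its F value. Levels are TMM-scaled CPM. DESeq2 1.42.0, limma-voom (limma 3.58.1), other scalings, filters and left-out libraries were tried. The fits were also run on simulated counts, drawn independently for each library and without deviant libraries. That run is therefore no support for the calls given here.

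The members, the gene lists and the rule for named features were chosen with earlier results of these data known. Named features were the largest called changes (up to 12 per direction, 50 CPM or more for genes and 10 CPM for miRNAs), the smallest p-values where fewer than 10 were called, called members of lists, and genes of interest. The promoter patterns, 7 in all, were searched after the calls were known, and every one is reported. Not described are miR-122, miR-199a and miR-146b, since no tested locus bears their name.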

Additional observations from a re-analysis of the deposited data

Results flagged for a closer look

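The difference of the diet effect between 3 months and 1 month passed for 3 features, none of which was called at 1 month. Mir205 had a log2 fold change of -0.03 at 1 month and 3.98 at 3 months, a difference of 4.01 (SE 0.75, adjusted p = 0.0326); it stood at 4.69 to 10.9 CPM in the HFCF livers at 1 month and at 36.2 to 139 CPM at 3 months. Mir741 had 1.19 at 1 month and -1.70 at 3 months, a difference of -2.89 (SE 0.60, adjusted p = 0.0436), on levels of 1.42 to 19.0 CPM. Snord123 had -0.28 and 2.07, a difference of 2.35 (SE 0.45, adjusted p = 0.0286).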

How the results depend on the processing

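The protein-coding calls rest on few reads, 1 to 964 counts per gene and library, and on 3 livers a group. Lower miRNA calls numbered 11 with DESeq2, 3 with all rows in 1 fit, 4 with only the 6 libraries of 1 month and 3 to 20 with 1 library left out (20 without chow replicate 3, 4 without chow replicate 2, 3 without HFCF replicate 3). Higher miRNA calls numbered 1 at 10 CPM, 2 with DESeq2, 1 with no filter and 0 to 4 with 1 library left out. Higher genes numbered 5 with all rows in 1 fit and 9 to 22 with 1 library left out (9 without HFCF replicate 2 and without chow replicate 2); lower genes numbered 6 with DESeq2, 3 with all rows in 1 fit, 7 with the 6 libraries and 3 to 19 with 1 left out (3 without HFCF replicate 2, 19 without chow replicate 3). With all rows in 1 fit the median miRNA log2 fold change moved from 0.02 to 0.34. Class totals without TMM moved the snoRNA median from 0.03 to -0.10. The cause of these changes was not tested.

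With the replicate number as a block, 11 miRNA loci and 29 genes were called. Over miRNA loci at 1 month, deviations from the group mean correlated at 0.191, -0.0423 and 0.391 between same-numbered livers. Between livers of unlike number they correlated at -0.425 to 0.19. Whether same-numbered livers share a batch or pairing cannot be told from these values. Alternatives that lost the call numbered 11 of 17 for Insig2, 10 of 17 for Gys2, 10 of 16 for Mir127, 8 of 17 for Acaa1b and Mug1, 7 of 16 for Mir434, 6 of 17 for Bhmt, 6 of 16 for Mir136 and 6 of 15 for Tgfbi. For Dcn and Tdo2 it was 5 of 17, and each other call was lost in 4 or fewer. Scd1 was lost when any chow library was left out.

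Class shares turned sign with 1 library left out, running from -0.487 to 0.0337 points for rRNA, -1.08 to 0.113 for mitochondrial RNA, -0.197 to 0.00803 for snRNA and -0.293 to 0.00991 for other rows. No called feature changed sign. Uncalled ones did. With all rows in 1 fit Mir148b was at 0.0772, Mir30c-2 at 0.204 and Snord64 at -0.0398. With class totals Mir34a was at -0.0604, Mir21 at -0.0155, Hbb-b1 at 0.0401, Snord64 at -0.107, Snord33 at -0.0218, Snord34 at -0.0264 and Snord32a at -0.0323. Mir34a was at -0.000552 with voom and -0.0022 with the replicate block, and Hbb-b1 at 0.00216 with the 6 libraries. Snord64 was at -0.0374 at 10 CPM and with no filter, -0.0242 with box classes apart, -0.0514 with DESeq2, -0.0522 with its size factors and -0.0357 without the most abundant feature. With 1 library left out, Mir30c-2 ran from -0.146 to 0.0386, Mir34a from -0.183 to 0.290, Mir21 from -0.0463 to 0.319, Cyp7a1 from -0.893 to 0.188, Hbb-b1 from -0.210 to 0.0782, Cd5l from -0.198 to 0.780, Snord64 from -0.233 to 0.142, Snord34 from -0.0285 to 0.185 and Snord32a from -0.0737 to 0.214.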

Other observations

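Saa1 and Lrg1, both of the acute phase, were uneven among the HFCF livers. The gene named first here was chosen after its values were seen. Saa1, a serum amyloid A gene with close copies, stood at 95.6, 100.1 and 18 CPM in chow and at 1435, 978 and 77.5 CPM in HFCF (log2 fold change 3.34, SE 1.09, adjusted p = 0.242). Lrg1 stood at 159, 167 and 144 CPM in chow and at 552, 433 and 116 CPM in HFCF (log2 fold change 1.13, SE 0.40, adjusted p = 0.17). HFCF replicates 1 and 2 were high in both genes and replicate 3 was not, while Scd1 was highest in replicate 3. Of 18 tested acute phase genes none passed, 9 were positive, and the median was 0.02. The list's summed level, untested rows included, was 28850, 26889 and 19603 CPM in chow and 26694, 23069 and 19144 CPM in HFCF. The list as a whole was thus uneven in both diets.

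Genes of endoplasmic reticulum stress and heat shock, untested rows included, summed to 8263 to 8880 CPM in chow and 6789 to 7056 CPM in HFCF, and 0 of 15 tested members passed. Hspa5, the main chaperone of that compartment, stood at 967, 1235 and 1314 CPM in chow and at 423, 828 and 788 CPM in HFCF (log2 fold change -0.76, SE 0.23, adjusted p = 0.0827). Of the clock genes 0 of 7 passed; Dbp, whose row overlaps Sphk2, stood at 53.1, 117 and 144 CPM in chow and at 313, 226 and 194 CPM in HFCF (log2 fold change 1.29, SE 0.42, adjusted p = 0.105).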
